A study of Mus musculus with 8 samples.

Results

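The response of stimulated CD4+ T cells to dorsomorphin is described here across the whole array, by setting the 2 arrays of stimulated cells given dorsomorphin against the 2 arrays of stimulated cells given the solvent DMSO. These are 4 of the 8 expression arrays of the study. The cells were CD4+ T cells taken from BALB/c mice, for which the labels name no mutation or transgene. In both groups the T cell receptor was engaged by plate-bound antibody to CD3 and the costimulatory receptor CD28 by soluble antibody for 1 h, and 4 µM dorsomorphin or DMSO was then present for 6 h. The other 4 arrays, 2 of cells given dorsomorphin and 2 of control cells, had the same hours of compound or DMSO without the antibodies. They show which changes were also measured in unstimulated cells, and they also enter the choice of probe sets, the low-signal filter and the estimate of spread that 1 fit shares over all 8 arrays. Each gene was read from its brightest probe set over the 8 arrays, and 13983 of 18193 genes were bright enough to be tested, with a low-signal floor at a signal of 37.3. A log2 fold is the mean log2 signal with dorsomorphin minus the mean with DMSO, given with its standard error (SE) from limma. A gene is said to have risen or fallen where its Benjamini-Hochberg adjusted p over all tested genes was under 0.05.

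Nothing in the labels states that the replicate arrays stem from different mice or cultures. The p-values therefore cover only array-to-array spread, possibly technical, and the number of arrays limits every estimate. Between the arrays of a group, the median absolute log2 difference per gene was 0.44 with dorsomorphin and 0.45 with DMSO in stimulated cells. The markers of CD4+ T cells that were found on the array (6 of 7) all lay above the floor in both groups, with summed signals of 30171 and 29079 with dorsomorphin and 36394 and 34572 with DMSO. The sums join markers that moved in opposite directions. Cd28 rose (13565 and 14101 with dorsomorphin, 7149 and 8119 with DMSO) and Cd3g fell (1723 and 1660, against 8456 and 8996), while the others did not pass. Summed CD8 T cell markers reached 281 and 176 with dorsomorphin and 289.6 and 196 with DMSO. Those of B cells reached 243 and 219 with dorsomorphin and 178 and 121 with DMSO, and those of myeloid cells 1142 and 848 with dorsomorphin and 1116 and 596 with DMSO. The part of these cells in the results was not tested. The NK cell markers found (2 of 3) had means under the floor in both groups, although Klre1 (54.1) and Ncr1 (38.5) were above it on the first array with dorsomorphin and Ncr1 (42.4) on the first with DMSO. As a sign of RNA quality, the beta-actin control probe sets had a 3′ minus 5′ log2 difference of 0.49 and 0.69 with dorsomorphin, against 0.33 on both arrays with DMSO. For the Gapdh control it was -0.46 and -0.42 with dorsomorphin and -0.49 and -0.32 with DMSO, so the groups overlapped. The part of RNA quality in the results was not tested. The same difference for the DapX control, a bacterial transcript, went with the replicate number in all 4 groups, at 1.11 to 1.37 on the arrays numbered 1 and 2.44 to 2.79 on those numbered 2. Each number holds 1 array of every group, and with the number as a block 1672 genes rose and 1968 fell in stimulated cells. In bulk RNA, fewer cells of a type and less RNA per cell cannot be told apart.

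T cell receptor and CD28 signals switch a resting CD4+ T cell within hours to a growing one. Calcium, MAP kinase and NF-kappaB signalling turn on immediate early transcription factors, then cytokine genes, and Myc and the kinase mTOR drive the building of ribosomes, nutrient uptake and biosynthesis. In the resting state, FOXO and KLF factors maintain genes of homing, survival and cell cycle arrest, and activation lowers many of them. Dorsomorphin, also called compound C, is a small molecule that blocks the kinase activity of the type I receptors of bone morphogenetic protein (BMP) signalling, which act through SMAD proteins to genes such as Id1, and of the energy-sensing kinase AMPK. It is known to act on other kinases as well.

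In stimulated cells, dorsomorphin was accompanied by lower levels of many cytokine, Egr family, ribosome assembly and biosynthesis genes and by higher levels of many genes of resting T cells. In all, 1738 genes fell and 1358 rose, which is 12.4% and 9.71% of the genes tested and 22.1% together. The counts in gene lists below are read beside these shares. The median absolute log2 fold was 1.78 among the genes that fell and 1.55 among those that rose. More than 4-fold changes were found for 692 genes that fell and 387 that rose, and more than 16-fold changes for 96 that fell and 16 that rose. The median over all tested genes was 0.07. The balance of the directions depended on the setting, with 1400 genes higher and 1248 lower without the first stimulated DMSO array, 1748 and 1720 with quantile normalization, and 802 and 1409 with median centring. The number past the threshold was 1000 without the first stimulated array with dorsomorphin, 1760 without the second, 1140 without the second stimulated DMSO array and 1751 without 1 or the other control array. It was 0 when only the 4 stimulated arrays were fitted, where 4040 genes had an unadjusted p under 0.05, against 5083 in the fit of all 8 arrays. Without regard to the test, the 2 arrays with dorsomorphin did not overlap the 2 with DMSO for 8458 genes (60.5%). They include all 1738 genes that fell and all 1358 that rose, so a lack of overlap adds nothing to a call.

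**Figure D1:**
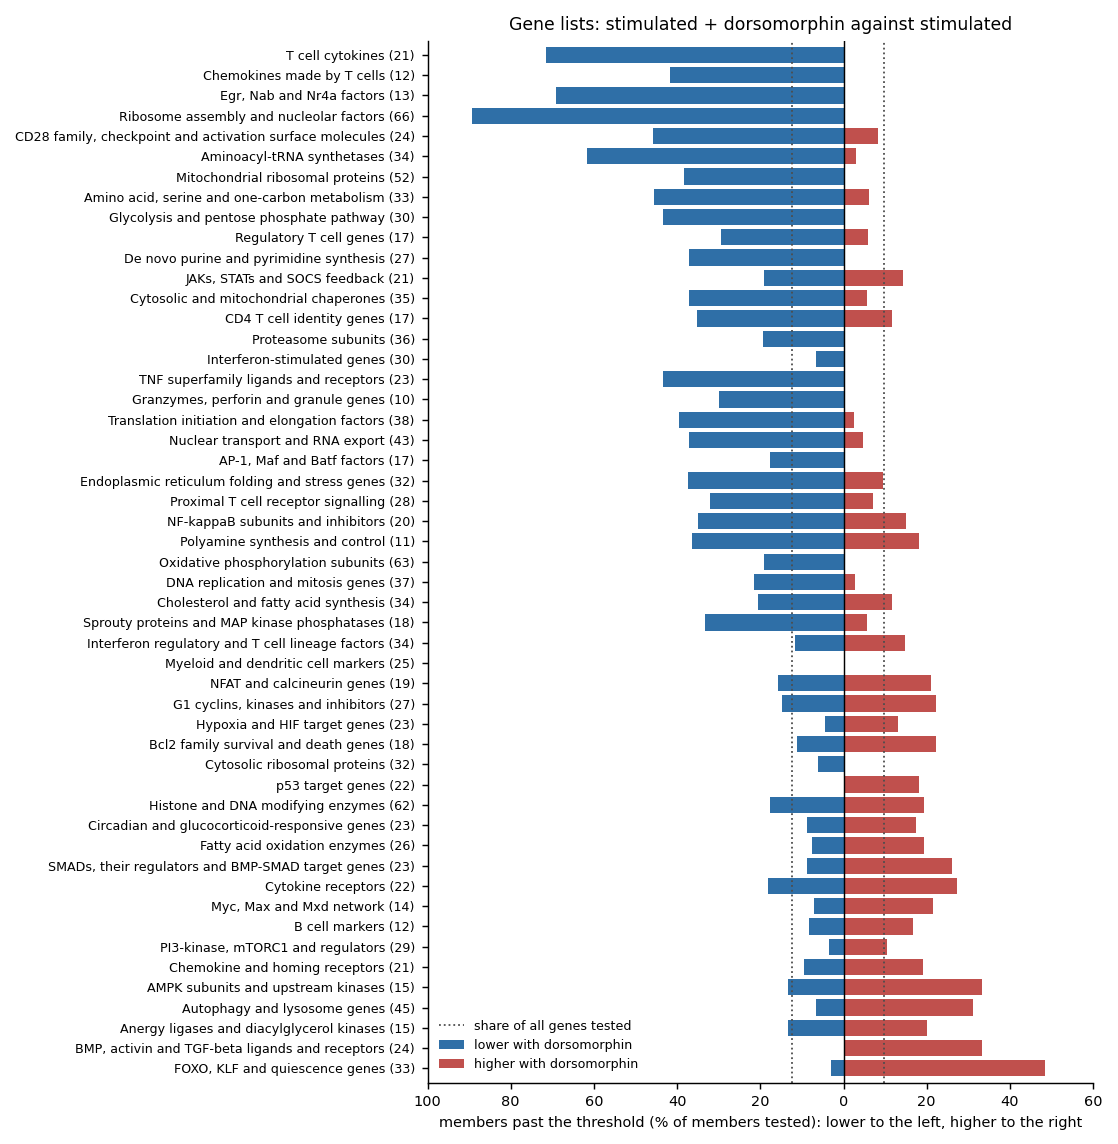
Bars give, for each gene list with 10 or more tested members (number in brackets), the percentage of members that passed the threshold in stimulated cells, with members lower with dorsomorphin drawn to the left and members higher to the right. Dotted lines mark the shares of all tested genes, 12.4% lower and 9.71% higher, and lists run from the lowest median log2 fold at the top to the highest at the bottom, with T cell cytokines first (-4.00) and the FOXO, KLF and quiescence list last (1.71).

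Most cytokine genes fell. Of 21 tested, 15 fell and 0 rose, with a median log2 fold of -4.00, where 12.4% of all genes fell. A member that passed the filter through the stimulated DMSO arrays alone, as Il13 and Il5 did, had to be lower with dorsomorphin. The count is read with that limit. Il2, the T cell growth factor, had signals of 18.8 and 93.7 with dorsomorphin, against 6414 and 18509 with DMSO, a fall of 8.02 ± 1.05 log2 units (SE, n = 2 arrays a group, adjusted p = 0.00817). Unstimulated cells had 23.0 and 75.7 with dorsomorphin and 30.5 and 80.8 with DMSO, so the treated stimulated cells were close to the unstimulated level. Ifng, encoding interferon gamma, had 41.3 and 75.8 with dorsomorphin and 3448 and 6408 with DMSO, a fall of 6.39 ± 0.52 (adjusted p = 0.00576). Il4, a cytokine of type 2 helper cells, had 46.5 and 49.8 with dorsomorphin and 1989 and 5652 with DMSO (-6.12 ± 1.09, adjusted p = 0.0155). The groups did not overlap for any of these genes, nor for any other gene that passed. Il3, which acts on blood cell precursors, lay under the floor on both arrays with dorsomorphin, at 20.7 and 4.52, against 617 and 1088 with DMSO, so it was at least 22-fold lower. Among the other members, Tnf, Il10 and Lif fell, with log2 folds of -3.90, -3.25 and -4.92. Il13 and Il5 also fell, but both lay under the floor on both stimulated arrays with dorsomorphin. Il13 had 10.9 and 11.2 there, against 321 and 805 with DMSO, and Il5 had 6.26 and 32.9, against 239 and 310. Their log2 folds of -5.53 and -4.25 are therefore uncertain in size. Csf2 had 10.4 and 165 with dorsomorphin and 603 and 1060.1 with DMSO and did not pass (-4.27 ± 1.49, adjusted p = 0.0953). The 21 genes had a median of -0.24 in unstimulated cells, with 0 passing in either direction there. Some members, such as Il13 and Il5, lay under the floor on every unstimulated array. A fall could not be measured for them there. The count of 15 was 6 without the first stimulated array with dorsomorphin and 5 without the second stimulated DMSO array.

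The promoters of 3 of these genes are shown because the falls were among the largest measured. The letters are the 250 bases before the gene start from RefSeq on build GRCm38.p6, 5′ to 3′ on the gene's strand, at chr3:37125955-37126204 (minus strand) for Il2, chr11:54267280-54267529 (minus) for Il3 and chr10:118440796-118441045 (plus) for Ifng. Capitals mark GGAAA on either strand, the core letters bound by NFAT and several other factors.
Il2: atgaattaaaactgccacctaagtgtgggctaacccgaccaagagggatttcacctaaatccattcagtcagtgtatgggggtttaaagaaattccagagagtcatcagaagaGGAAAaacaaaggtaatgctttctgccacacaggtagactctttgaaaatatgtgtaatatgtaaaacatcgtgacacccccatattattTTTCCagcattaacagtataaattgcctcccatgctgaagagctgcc
Il3: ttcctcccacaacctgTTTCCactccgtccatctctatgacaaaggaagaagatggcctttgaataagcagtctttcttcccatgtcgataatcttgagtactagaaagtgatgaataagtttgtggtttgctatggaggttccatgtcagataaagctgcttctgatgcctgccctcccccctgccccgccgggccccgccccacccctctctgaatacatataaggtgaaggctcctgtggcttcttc
Ifng: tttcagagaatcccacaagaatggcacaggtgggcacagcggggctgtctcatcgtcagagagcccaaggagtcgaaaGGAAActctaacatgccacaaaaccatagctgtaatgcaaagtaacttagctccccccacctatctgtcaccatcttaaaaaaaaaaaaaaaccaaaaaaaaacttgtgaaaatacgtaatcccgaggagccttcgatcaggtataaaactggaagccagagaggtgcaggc
Il2 held 2 copies and Il3 and Ifng 1 each. GGAAA was present in this window for 15 of 18 cytokine genes with a promoter entry (83.3%) and for 53.9% of all tested genes with one. The AP-1 letters TGANTCA, whose 2 strands read alike, were in 4 of the 18 (22.2%) and in 4.91% of all, and in none of the windows printed here. The letters of the 2 motifs cannot overlap. These are counts of letters and show no binding.

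Of 12 chemokine genes made by T cells, 5 fell, 0 rose and 7 did not pass, with a median of -3.14. The limit on members that pass the filter through the stimulated DMSO arrays alone applies to this list too. Ccl1 had 39.6 and 112 with dorsomorphin, against 3514 and 8675 with DMSO (-6.38 ± 0.87, adjusted p = 0.00863). Xcl1, or lymphotactin, had 13.1 and 117 with dorsomorphin and 3677 and 2198 with DMSO (-6.18 ± 1.01, adjusted p = 0.0129). The 2 arrays with dorsomorphin differed widely for both genes, but neither reached the DMSO arrays. Ccl3 and Ccl4, chemokines that attract other leukocytes, were also low: Ccl3 lay under the floor at 32.6 and 15.5 with dorsomorphin, against 1051 and 2091 with DMSO, and was at least 39.8-fold lower, and Ccl4 fell by 4.53 ± 0.56. Ccl3 also fell in unstimulated cells, by 2.69 (adjusted p = 0.0326).

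**Figure D2:**
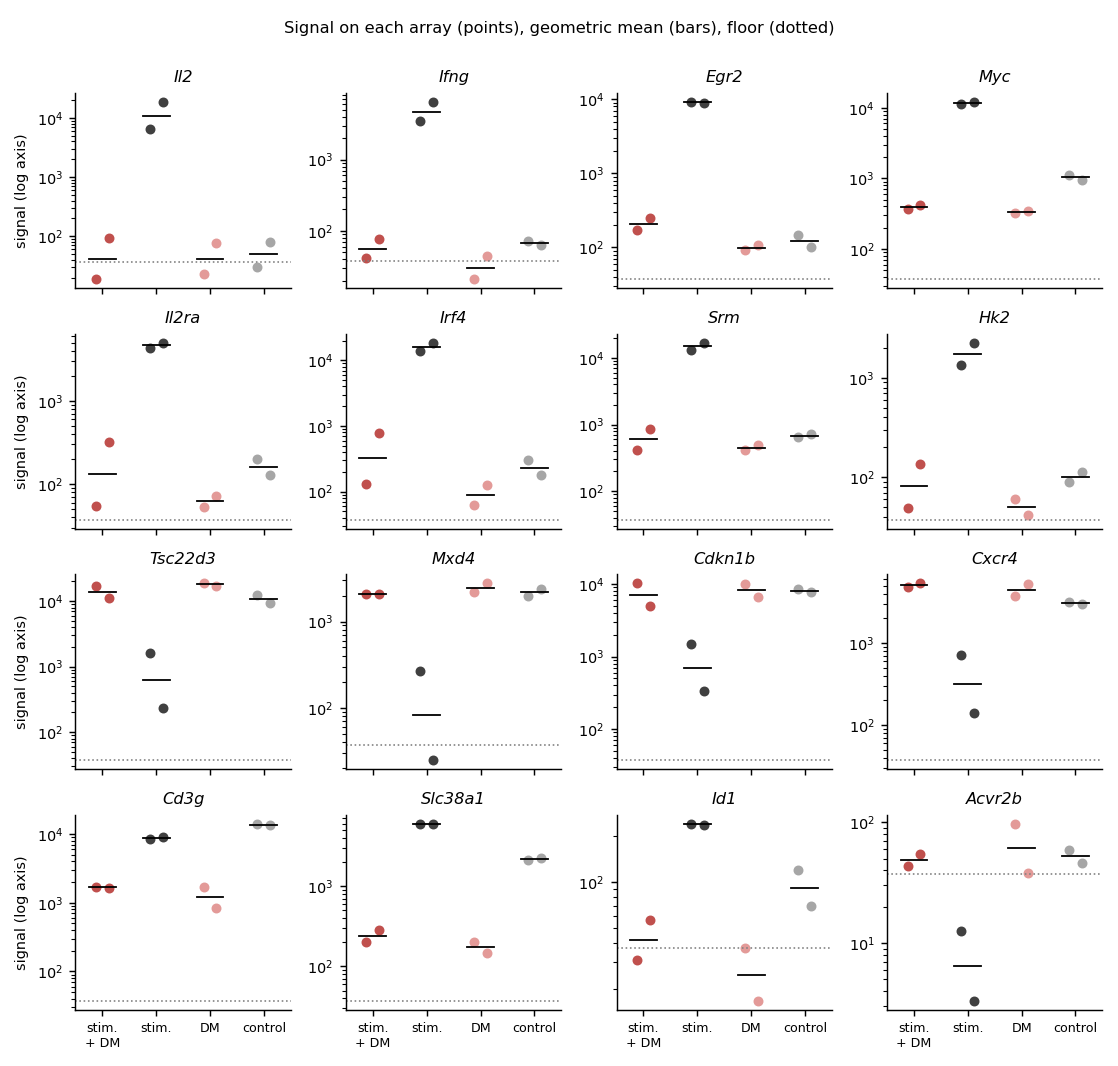
Each panel gives the signal of 1 gene on a log axis, with 1 point per array, a bar at the geometric mean of the 2 arrays of each group and a dotted line at the low-signal floor of 37.3; stim. + DM is stimulated with dorsomorphin, stim. stimulated with DMSO, and DM dorsomorphin without stimulation. Il2, Ifng, Egr2, Myc, Il2ra, Irf4, Srm and Hk2 were high on the stimulated DMSO arrays alone, Tsc22d3, Mxd4, Cdkn1b and Cxcr4 were low there, and Cd3g and Slc38a1 were low on all 4 arrays with dorsomorphin.

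Immediate early genes of the Egr, Nab and Nr4a families, many of which read out the strength of receptor signalling, were listed together with Ier genes and Srf and fell in 9 of 13 cases with 0 rising (median -2.07). Egr2 had 170.1 and 251 with dorsomorphin, against 9162 and 8964 with DMSO, and its log2 fold was -5.45 ± 0.30 (adjusted p = 0.00491). Egr3 had 173 and 314 with dorsomorphin and 10408 and 5159 with DMSO (-4.98 ± 0.64). All 4 values with dorsomorphin lay far under the DMSO ones. Egr1 was less low, at 691 and 1739 with dorsomorphin, against 15733 and 9894 with DMSO (-3.51 ± 0.55, adjusted p = 0.0117). The orphan nuclear receptor gene Nr4a3 had 708 and 854 with dorsomorphin and 15978 and 10060.2 with DMSO (-4.03 ± 0.36). These are the brightest probe sets, and the other bright ones of Egr3 and Nr4a3 had log2 folds of -0.54 and -0.38. AP-1 genes gave few calls, with 3 of 17 falling and 0 rising, which is near the 12.4% of all genes. Fos had 997 and 291 with dorsomorphin and 1998 and 1281 with DMSO, and Junb had 2028 and 1623 with dorsomorphin and 2177 and 1592 with DMSO. For these 2 genes the arrays of a group differed by as much as the groups did, and neither passed (adjusted p = 0.264 and 0.946).

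In the list of interferon regulatory and lineage factors, 4 of 34 fell (11.8%) and 5 rose (14.7%), beside 12.4% and 9.71% of all genes, and the members that fell were Irf4, Tbx21, Irf8 and Ikzf2. Irf4, needed for the growth of activated T cells, had 132 and 776 with dorsomorphin and 13837 and 18617 with DMSO (-5.65 ± 0.86, adjusted p = 0.0109). Tbx21, encoding the type 1 helper factor T-bet, had 99.0 and 246 with dorsomorphin and 2167 and 2687 with DMSO (-3.95 ± 0.49, adjusted p = 0.0073). From the NFAT and calcineurin list, Hivep3, a large zinc finger protein, had 59.9 and 317 with dorsomorphin and 25625 and 18725 with DMSO, a fall of 7.31 ± 0.76 that was second to Il2 among genes not under the floor on both arrays of either group. This was its brightest probe set, and its 5 bright probe sets ran from -7.31 to 0.68. Irf8, of the interferon regulatory family, had a log2 fold of -3.96 ± 0.85, and Gfi1, a zinc finger repressor outside that list, fell too (-4.74 ± 0.38). Other lineage factors were not separated: Foxp3 had a log2 fold of -1.08 ± 0.43 (adjusted p = 0.128), Gata3 of -0.47 ± 0.29 (0.298) and Bcl6 of -0.80 ± 0.35 (0.163). Among the members that rose was Zeb1, a repressor of Il2, with 7812 and 10144 with dorsomorphin and 1302 and 825 with DMSO (3.10 ± 0.37).

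NF-kappaB genes were mixed, with 7 of 20 falling (35%) and 3 rising (15%), beside 12.4% and 9.71% of all genes. Nfkbid, a nuclear inhibitor-like protein, had 369 and 574 with dorsomorphin and 7359 and 5447 with DMSO (-3.78 ± 0.30). Tnfaip3, the ubiquitin-editing brake on the pathway, went the other way, with 17234 and 11934 with dorsomorphin and 4399.5 and 2669.7 with DMSO (2.07 ± 0.36, adjusted p = 0.0151). It also rose in unstimulated cells (1.66, adjusted p = 0.0388). Of the 19 NFAT and calcineurin genes, 3 fell (15.8%) and 4 rose (21.1%), beside 12.4% and 9.71% of all genes. Rcan1, a calcineurin inhibitor that is itself an NFAT target, had 59.0 and 80.6 with dorsomorphin and 505 and 653 with DMSO (-3.06 ± 0.26, adjusted p = 0.00576). Its unstimulated values were 63.7 and 55.4 with dorsomorphin and 535 and 510.4 with DMSO, so this gene was low wherever dorsomorphin was present, whether or not the receptor was engaged.

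Feedback genes of MAP kinase signalling fell in 6 of 18 cases (33.3%), with 1 rising (5.56%), beside 12.4% and 9.71% of all genes. Spry1, an inhibitor of receptor-driven MAP kinase signalling, had 155 and 176 with dorsomorphin, against 6954 and 7192 with DMSO (-5.42 ± 0.25, adjusted p = 0.00313). The unstimulated values were 119 and 110.0 with dorsomorphin and 148 and 106 with DMSO, so the treated stimulated cells were near the resting level. Dusp6, a phosphatase for the MAP kinase ERK, had 268 and 234 with dorsomorphin and 3934 and 5743 with DMSO (-4.25 ± 0.34). Proximal T cell receptor signalling genes fell in 9 of 28 cases (32.1%) and rose in 2 (7.14%, under the 9.71% of all genes). Cd3g, a chain of the receptor complex, had 1723 and 1660.0 with dorsomorphin and 8456 and 8996 with DMSO (-2.37 ± 0.35, adjusted p = 0.0104). It also fell in unstimulated cells, with 1720.5 and 853 with dorsomorphin and 14174 and 13421 with DMSO (-3.51, adjusted p = 0.0109). Among genes of CD4 T cell identity, 6 of 17 fell (35.3%) and 2 rose (11.8%) in stimulated cells. In unstimulated cells 9 fell, where 11.1% of all genes did, and 4 fell in both.

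Surface molecules of activation divided. Of 24 genes of the CD28 family, checkpoints and activation markers, 11 fell (45.8%) and 2 rose (8.33%), with a median of -1.48. Il2ra, the chain that gives the IL-2 receptor high affinity, had 54.7 and 323 with dorsomorphin and 4339 and 5046 with DMSO (-5.14 ± 0.80, adjusted p = 0.0117). Cd69, which holds activated cells in lymphoid tissue, had 2519 and 3516 with dorsomorphin and 13282 and 13393 with DMSO (-2.16 ± 0.48, adjusted p = 0.0277). Cd69 with dorsomorphin stayed in the range of the unstimulated cells given dorsomorphin (2029 and 4432). Pdcd1lg2, a ligand of the inhibitory receptor PD-1, and Pdcd1, encoding PD-1, both fell (-4.61 ± 0.28 and -2.17 ± 0.24). Ctla4 had 4759 and 3598 with dorsomorphin and 4635 and 3794 with DMSO, and did not pass (-0.02 ± 0.33). Cd28 rose by 0.86 ± 0.23 (adjusted p = 0.0443). In the TNF superfamily 10 of 23 genes fell (43.5%, beside 12.4% of all genes) and 0 rose. The limit on members that pass the filter through the stimulated DMSO arrays alone applies here too. Tnfsf14, or LIGHT, was under the floor at 7.38 and 9.74 with dorsomorphin, against 586 and 658 with DMSO, at least 16.7-fold lower. Gzmb, encoding the killing protease granzyme B, had 111 and 214 with dorsomorphin and 2659 and 3156 with DMSO (-4.23 ± 0.39). The falls at the edge of detection included Crtam, a receptor of activated T cells, at least 60.5-fold lower, and Tacc2, at least 51.2-fold lower.

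Receptors for cytokines and chemokines had members in both directions. In the cytokine receptor list, 4 of 22 fell (18.2%) and 6 rose (27.3%), beside 12.4% and 9.71% of all genes. Ifngr1, a chain of the interferon gamma receptor, had 13327 and 11813 with dorsomorphin and 3172 and 771 with DMSO, and it rose (adjusted p = 0.024). Il7r, the receptor for the survival cytokine IL-7, had 13362 and 3909 with dorsomorphin and 2809.7 and 504.2 with DMSO, and its log2 fold of 2.60 ± 0.92 did not pass (adjusted p = 0.0966). In the list of chemokine and homing receptors, 4 of 21 rose (19.0%) and 2 fell (9.52%, under the 12.4% of all genes). Cxcr4, the receptor for the bone marrow and lymphoid chemokine Cxcl12, had 4802 and 5355 with dorsomorphin and 716 and 139 with DMSO (4.01 ± 0.73, adjusted p = 0.0165). Ccr7, which guides cells into lymph nodes, rose by 1.12 ± 0.26. S1pr1, needed to leave them, had 5904 and 2235 with dorsomorphin and 999 and 96.4 with DMSO and did not pass (3.55 ± 1.11, adjusted p = 0.0714), and its 2 DMSO arrays differed by about as much as the groups.

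Genes of cell growth fell in large numbers. Myc, the transcription factor that drives growth and ribosome building, had 369 and 426 with dorsomorphin, against 11413 and 12034 with DMSO (-4.89 ± 0.21, adjusted p = 0.00313). Its unstimulated values were 327 and 342 with dorsomorphin and 1115 and 952 with DMSO, a fall of 1.62 (adjusted p = 0.0139), so Myc lay below the control level on all 4 arrays with dorsomorphin. Of 14 genes of the Myc network 1 fell, Myc itself (7.14%, under the 12.4% of all genes). The 3 that rose (21.4%, beside 9.71%) were the antagonists Mxd4, Mxi1 (2.27 ± 0.40) and Mnt (1.25 ± 0.24). Of 66 ribosome assembly and nucleolar factors, 59 fell, 0 rose and 65 had a negative log2 fold, with a median of -2.04, beside 0.07 for all genes. Polr1b, a core subunit of the RNA polymerase that makes ribosomal RNA, had 181 and 178 with dorsomorphin and 2278 and 2525 with DMSO (-3.74 ± 0.27, adjusted p = 0.00576). Its unstimulated values were 175 and 156 with dorsomorphin and 176 and 273 with DMSO, so with dorsomorphin the stimulated cells sat at the unstimulated level. Nhp2, a protein of the particles that modify ribosomal RNA, had 1334 and 2599 with dorsomorphin and 15545 and 20609.8 with DMSO (-3.26 ± 0.37). Nop56, another particle protein, fell by 2.63, and the abundant nucleolar proteins Ncl and Npm1 had log2 folds of -1.36 and -0.89. The members that did not pass included Bms1 (-0.54), Surf6 (-0.42) and Rrn3 (-0.44). The count of 59 was 29 without the first stimulated array with dorsomorphin and 27 without the second stimulated DMSO array. In unstimulated cells the list's median was 0.20 and 1 member fell, Polr1a, which encodes the largest subunit of the same polymerase (fall of 1.59, adjusted p = 0.0223).

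**Figure D3:**
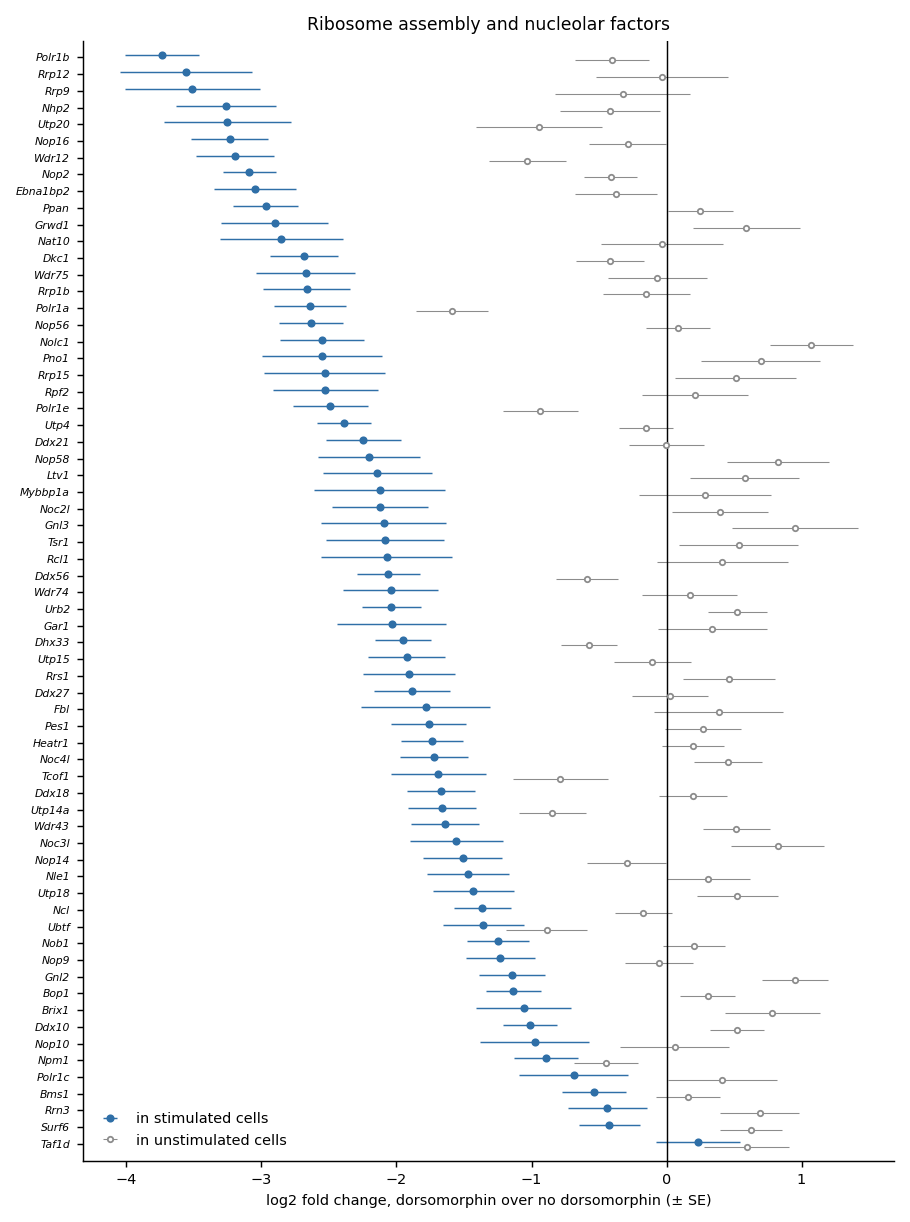
Each row is 1 of the 66 tested ribosome assembly and nucleolar factors, with its log2 fold change and SE on the horizontal axis. Filled points are stimulated cells, dorsomorphin over DMSO, where 65 of 66 lie below 0, and open points are unstimulated cells, dorsomorphin over control, which spread around a median of 0.20.

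Myc and related factors bind the letters CACGTG, called an E-box. Within the 250 bases before the gene start this motif, which reads alike on both strands, was found for 3 of 52 ribosome assembly genes that fell and have a promoter entry (5.77%), for 10.9% of all genes that fell and for 7.97% of all tested genes. With the 50 bases after the start added, the counts were 14 of 52 (26.9%), 14.8% and 9.57%. Of those 14 genes, 11 had the letters after the start. The windows of the 6 with the largest falls among the 14 are printed, a choice made after their positions were seen. They are given as in RefSeq on GRCm38.p6 in the direction of the gene, with CACGTG in capitals.
Utp20: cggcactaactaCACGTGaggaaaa
Nop2: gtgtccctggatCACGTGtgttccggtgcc
Grwd1: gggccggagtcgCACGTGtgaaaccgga
Pno1: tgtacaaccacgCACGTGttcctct
Rpf2: aagtaatcggtaCACGTGcattcgctaa
Utp4: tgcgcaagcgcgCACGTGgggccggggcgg
They lie at chr10:88826765-88826789 (minus strand) for Utp20, chr6:125131811-125131840 (plus) for Nop2, chr7:45830740-45830767 (minus) for Grwd1, chr11:17211540-17211564 (minus) for Pno1, chr10:40246990-40247017 (minus) for Rpf2 and chr8:106893643-106893672 (plus) for Utp4. The first C lies at base 38 after the start in Utp20 and Pno1, at base 35 in Grwd1 and Rpf2, at base 16 in Utp4 and 60 bases before the start in Nop2. By the choice, all 6 genes belong to the ribosome assembly list and all fell. The log2 folds were -3.25 for Utp20, -3.09 for Nop2, -2.90 for Grwd1, -2.55 for Pno1, -2.53 for Rpf2 and -2.39 for Utp4. A match of letters is a description and shows no binding.

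The ribosome's own proteins gave few calls. Of 32 cytosolic ribosomal protein genes tested, 2 fell and 0 rose, 25 had a positive log2 fold and the median was 0.12, beside 0.07 for all genes. Mitochondrial ribosomal proteins fell in 20 of 52 cases with 0 rising, and 51 had negative folds (median -1.12). Aminoacyl-tRNA synthetases, which charge tRNAs with amino acids, fell in 21 of 34 cases and rose in 1 (median -1.47). That count was 7 without the first stimulated array with dorsomorphin, 13 without the first stimulated DMSO array and 6 without the second. Iars, for isoleucine, had 1198 and 1307 with dorsomorphin and 7431 and 8455 with DMSO (-2.66 ± 0.26), and Farsb, for phenylalanine, fell by 2.73 ± 0.32. Among translation factors, 15 of 38 fell (39.5%) and 1 rose (2.63%). For nuclear transport and RNA export, 16 of 43 genes fell (37.2%) and 2 rose (4.65%). The shares of all genes were 12.4% and 9.71%.

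Among protein folding and degradation genes, falls were also more numerous than rises. Chaperones fell in 13 of 35 cases (37.1%) and rose in 2 (5.71%). Endoplasmic reticulum folding genes fell in 12 of 32 (37.5%) and rose in 3 (9.38%, near the 9.71% of all genes). Hspd1, the mitochondrial chaperonin, had 2085 and 5465 with dorsomorphin and 21304 and 24404 with DMSO (-2.76 ± 0.48, adjusted p = 0.0149). The 2 arrays with dorsomorphin differed by more than 2-fold and both lay under the DMSO arrays. Proteasome subunits fell in 7 of 36 cases (19.4%, beside 12.4% of all genes), and 35 of the 36 had negative log2 folds with a median of -0.88.

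In the lists of polyamine and amino acid metabolism, falls outnumbered rises. Srm, which makes the polyamine spermidine, had 422 and 867 with dorsomorphin and 13255 and 16979 with DMSO (-4.63 ± 0.38, adjusted p = 0.00576). Odc1, the enzyme before it, had 4110.2 and 4871 with dorsomorphin and 15056 and 18482 with DMSO (-1.90 ± 0.23). Of the 11 polyamine genes 4 fell (36.4%) and 2 rose (18.2%), beside 12.4% and 9.71% of all genes. In amino acid, serine and one-carbon metabolism 15 of 33 fell and 2 rose. Bcat1, which transfers nitrogen from branched-chain amino acids, had 38.2 and 120.3 with dorsomorphin and 3781 and 4186 with DMSO (-5.87 ± 0.61). Slc7a5, the large neutral amino acid transporter subunit, fell (-3.30), as did Shmt2, a mitochondrial serine enzyme (-3.55), and Psat1, of serine synthesis (-3.22). The amino acid transporter Slc38a1 had 203 and 283 with dorsomorphin, against 5974 and 5929 with DMSO, and in unstimulated cells 203 and 146 with dorsomorphin, against 2107 and 2257 in control cells. It fell in both states, with log2 folds of -4.63 ± 0.28 and -3.66 (adjusted p = 0.00491 and 0.00975), and the 4 arrays with dorsomorphin had similar levels.

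Falls also outnumbered rises in nucleotide and sugar metabolism. For de novo purine and pyrimidine synthesis, 10 of 27 fell and 0 rose, led by Cad, the enzyme that begins pyrimidine synthesis, with 105 and 202 with dorsomorphin and 3403 and 4035 with DMSO (-4.67 ± 0.35). Pfas, a purine enzyme, fell by 4.51 ± 0.37. In glycolysis and the pentose phosphate pathway, 13 of 30 fell and 0 rose. Hk2, the hexokinase induced in growing cells, had 49.2 and 136 with dorsomorphin and 1353 and 2268 with DMSO (-4.42 ± 0.55, adjusted p = 0.0073). The lactate transporter Slc16a1 fell (-3.30 ± 0.54), and so did lactate dehydrogenase A, Ldha (-1.33 ± 0.21). Oxidative phosphorylation subunits fell in 12 of 63 cases (19.0%, beside 12.4% of all genes) and rose in 0. Cholesterol and fatty acid synthesis was mixed, with 7 of 34 falling (20.6%) and 4 rising (11.8%), beside 12.4% and 9.71% of all genes. Fasn was among those that fell (-2.63 ± 0.29). The kinase gene Mtor had 257 and 308 with dorsomorphin and 1261 and 1138 with DMSO, and in unstimulated cells 273 and 230.2 with dorsomorphin and 1229 and 1404 in control cells, a fall in both states. Another probe set of Mtor rose in stimulated cells (1.97) and the mean of all its probe sets gave 0.29, so its direction depends on the probe set.

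Cell cycle genes of the G1 phase had members in both directions. Of 27 tested, 4 fell (14.8%), a share near the 12.4% of all genes, and 6 rose (22.2%), beside 9.71%. Ccnd2, the cyclin induced on activation, had 1229 and 2972 with dorsomorphin and 29928 and 29729.7 with DMSO (-3.96 ± 0.47), and its partner kinase gene Cdk4 had 480.4 and 457 with dorsomorphin and 3993 and 6265 with DMSO (-3.42 ± 0.27). The inhibitor Cdkn1b, or p27, had 10239.7 and 4897 with dorsomorphin, against 1484 and 334 with DMSO (3.33 ± 0.74, adjusted p = 0.029). Ccng2, a cyclin of arrested cells, had 6986 and 5238 with dorsomorphin and 858 and 192 with DMSO (3.90 ± 0.67). For these 4 genes the groups did not overlap, as for every gene past the threshold. DNA replication and mitosis genes fell in 8 of 37 cases (21.6%) and rose in 1 (2.70%). In the Bcl2 family 4 of 18 rose (22.2%) and 2 fell (11.1%, near the 12.4% of all genes). The death-promoting Bbc3, or Puma, rose (2.12 ± 0.34), and Bid fell (-3.77 ± 0.24).

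Among genes that mark resting T cells, rises outnumbered falls. In the FOXO, KLF and quiescence list, 16 of 33 rose, 1 fell and 16 did not pass, with a median of 1.71 and 29 positive values, where 9.71% of all genes rose. The count of 16 was 1 without the first stimulated array with dorsomorphin, 7 without the second, 7 without the second stimulated DMSO array, 10 without 1 or the other unstimulated dorsomorphin array and 7 without 1 or the other control array. Tsc22d3, or GILZ, a FOXO and glucocorticoid target, had 17207 and 11312 with dorsomorphin, against 1616 and 238 with DMSO (4.49 ± 0.85, adjusted p = 0.0184). Unstimulated cells had 18792 and 17155 with dorsomorphin and 12211 and 9469 with DMSO, so the stimulated DMSO cells stood apart as the low group. Mxd4, an antagonist of Myc for its partner Max, had 2082 and 2091 with dorsomorphin and 269.7 and 24.6 with DMSO (4.68 ± 1.03, adjusted p = 0.028), the largest rise among genes not under the floor on both arrays of either group. The 4 bright probe sets of Mxd4 ran from 0.24 to 5.30, and the 4 of Tsc22d3 from 0.33 to 4.49. Klf6 and Klf13, zinc finger factors of the KLF family, rose by 3.18 ± 0.50 and 2.07 ± 0.47, and Foxo1 by 1.71 ± 0.35. Klf2, which maintains homing receptors, had 15125 and 10209.7 with dorsomorphin and 6689 and 2078 with DMSO and did not pass (1.74 ± 0.57, adjusted p = 0.0808). In unstimulated cells 0 members of this list rose and 2 fell (median -0.16). The FOXO letters GTAAACA, searched on both strands within 250 bases before the start, were found for 2 of 29 of the list's genes with a promoter entry (6.90%) and for 2.39% of all tested genes.

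Other large rises were found outside that list. Klhl24, a substrate adaptor of ubiquitin ligases, had 5502 and 3489 with dorsomorphin and 318 and 106 with DMSO (4.58 ± 0.54, adjusted p = 0.00712). Vps37b, a subunit of a membrane sorting complex, had 18805 and 11619.7 with dorsomorphin and 1511 and 345 with DMSO (4.36 ± 0.69), and H1f2, a linker histone, had 3747 and 2335 with dorsomorphin and 258 and 78.6 with DMSO (4.38 ± 0.58). Hbp1, a repressor of cell cycle genes, rose by 3.98 ± 0.54, and Fbxo32, a ubiquitin ligase subunit and FOXO target in muscle, by 3.82 ± 0.73. For each of these genes the second DMSO array was lower than the first, by more than 2-fold. Of the 1358 genes that rose, 65.6% were lower on the second than on the first stimulated array with dorsomorphin and 71.1% with DMSO, beside 56.2% and 58.2% of all tested genes. A drop of 1 log2 unit or more was seen for 3.39% of the genes that rose with dorsomorphin and 11.5% with DMSO, beside 12.2% and 16.9% of all tested genes. Without that array 459 genes rose in place of 1358, and without the first stimulated array with dorsomorphin 277 did. The brightest probe set of Auh, a mitochondrial enzyme of leucine breakdown, had replicate arrays close together, with 1383 and 1079 with dorsomorphin and 78.4 and 75.7 with DMSO (3.99 ± 0.25, adjusted p = 0.00491), and also rose in unstimulated cells (2.37, adjusted p = 0.0111). Across bright probe sets in stimulated cells, log2 folds ran from -0.22 to 4.49 for H1f2, 0.14 to 3.98 for Hbp1 and 0.09 to 4.41 for Fbxo32.

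Autophagy and lysosome genes rose in 14 of 45 cases and fell in 3 (median 0.53). Map1lc3a, a coat protein of autophagosomes, rose by 2.66 ± 0.59, Tfeb, the factor that controls lysosome genes, by 2.27 ± 0.31, Atg14 by 2.20 ± 0.27 and the lysosomal lipase Lipa by 2.27 ± 0.31. Atg12, a ubiquitin-like protein of the pathway, had 3080.1 and 3616 with dorsomorphin and 765 and 697 with DMSO (2.19 ± 0.23). The replicate arrays of Atg12 were close, and the groups did not overlap, as for every gene past the threshold. Of p53 target genes, 4 of 22 rose (18.2%, beside 9.71% of all genes) and 0 fell, with the stress protein Sesn1 at 2.70 ± 0.43. Among 29 PI3-kinase and mTORC1 genes, 3 rose (10.3%, near the 9.71% of all genes) and 1 fell. Rictor, of the second mTOR complex, rose by 1.87 ± 0.28.

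The pathways that dorsomorphin is known for changed at some of their own genes. Among BMP target genes, Id1, an inhibitor of differentiation factors, had 31.0 and 56.6 with dorsomorphin, against 240.3 and 236 with DMSO (-2.51 ± 0.51, adjusted p = 0.0226). Id3 had 169 and 111 with dorsomorphin and 298 and 313 with DMSO (-1.15 ± 0.33, adjusted p = 0.0579). For Id2 the value was 0.61 ± 0.33, with an adjusted p of 0.236. Id1 fell, and Id2 and Id3 did not pass. Smad6, the inhibitory SMAD induced by BMPs, was too dim to be tested. Over SMADs, their regulators and targets, 6 of 23 rose (26.1%) and 2 fell (8.70%), beside 9.71% and 12.4% of all genes. The shared partner Smad4 had 11252 and 9871 with dorsomorphin and 3141 and 2454 with DMSO (1.92 ± 0.28), the inhibitory Smad7 rose by 1.62 ± 0.44 (adjusted p = 0.0488) and the ubiquitin ligase Smurf1 by 2.62 ± 0.36.

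Ligands and receptors of the BMP, activin and TGF-beta families rose in 8 of 24 tested cases and fell in 0, and 9 more were below the low-signal filter. A member that passed the filter through the dorsomorphin arrays alone had to differ, so this count is read with that limit. Acvr1, a type I receptor that dorsomorphin blocks, had 176 and 142 with dorsomorphin and 70.1 and 73.1 with DMSO (1.14 ± 0.21, adjusted p = 0.0177). Bambi, a decoy receptor, had 201 and 206 with dorsomorphin and 81.2 and 74.9 with DMSO (1.39 ± 0.26, adjusted p = 0.0172). Both also rose in unstimulated cells, Acvr1 by 1.07 and Bambi by 1.21. The receptor genes Bmpr1a and Bmpr2 had log2 folds of 0.44 ± 0.22 and 0.23 ± 0.24 and did not pass.

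AMPK subunits and their upstream kinases rose in 5 of 15 cases (33.3%) and fell in 2 (13.3%), beside 9.71% and 12.4% of all genes. Prkab1, a regulatory subunit, had 1611 and 1699.9 with dorsomorphin and 733 and 723 with DMSO (1.19 ± 0.22, adjusted p = 0.0182). The catalytic subunit gene Prkaa1 had a log2 fold of 0.35 ± 0.33 and did not pass. The brightest probe set of Prkag2, another regulatory subunit, fell in stimulated cells (-1.94) and in unstimulated ones (-2.93). Its 4 bright probe sets ran from -2.15 to 2.44 in stimulated cells, so its direction depends on the probe set. Stk11, or LKB1, which activates AMPK, rose by 1.56 ± 0.21, but the mean of its probe sets gave -0.23. Fatty acid oxidation genes, a pathway that AMPK promotes, rose in 5 of 26 cases (19.2%) and fell in 2 (7.69%). Cpt1a, its entry enzyme, had -0.27 ± 0.38 (adjusted p = 0.664).

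Several lists gave few calls. Interferon-stimulated genes fell in 2 of 30 cases (6.67%, under the 12.4% of all genes) and rose in 0. Still, 23 of the 30 had negative log2 folds, with a median of -0.86, and the median in unstimulated cells was -0.99. Hypoxia target genes rose in 3 of 23 (13.0%) and fell in 1 (4.35%). Of 25 markers of myeloid and dendritic cells 0 passed in either direction. Histone and DNA modifying enzymes gave more calls and were split, with 12 of 62 rising (19.4%) and 11 falling (17.7%). Of 12 B cell markers 2 rose and 1 fell, 16.7% and 8.33%. Actb, encoding beta-actin, had a log2 fold of -0.07 ± 0.20 (adjusted p = 0.831).

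Set beside the unstimulated cells, the 2 arrays of stimulated cells with dorsomorphin were close to those of dorsomorphin alone. Of the 1358 genes that rose, 1314 (96.8%) had a mean within 1 log2 unit of the mean in unstimulated cells given dorsomorphin, and of the 1738 that fell, 1605 (92.3%) did, beside 88.8% of all tested genes. Against control cells the shares within 1 unit were 85.1% for the genes that rose and 59.0% for those that fell, and 688 of the genes that fell (39.6%) lay at least 1 unit under the control level, beside 20.7% of all tested genes. These are descriptions, since the arrays with dorsomorphin are those that chose the genes.

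**Figure D4:**
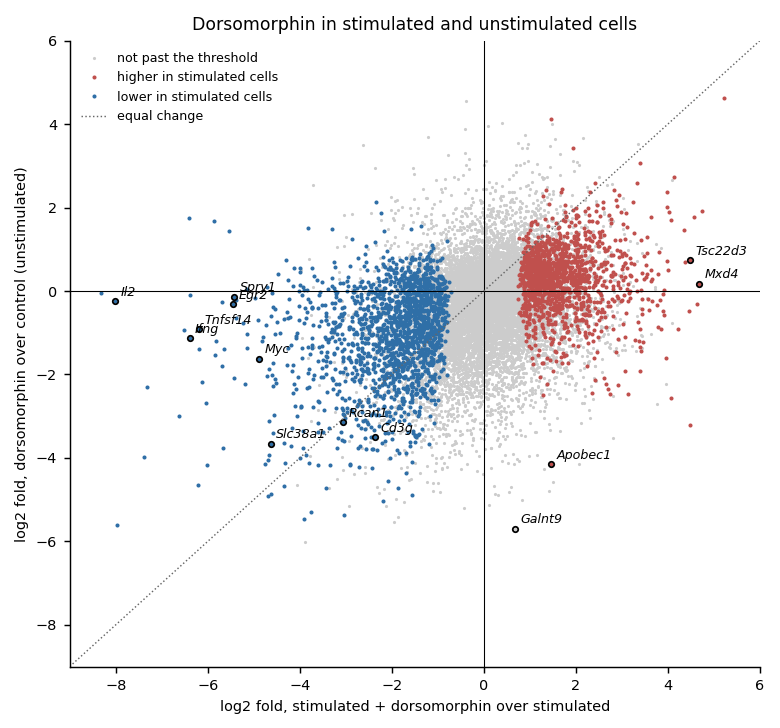
Each point is 1 of the 13983 tested genes, with its log2 fold in stimulated cells (dorsomorphin over DMSO) on the horizontal axis and its log2 fold in unstimulated cells (dorsomorphin over control) on the vertical axis; colours mark the genes that rose and fell in stimulated cells and the dotted line equal change. Il2, Ifng, Egr2 and Spry1 lie near 0 on the vertical axis, Rcan1, Cd3g and Slc38a1 are low on both axes, and Galnt9 and Apobec1 are low in unstimulated cells alone.

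Dorsomorphin in unstimulated cells was measured on 4 other arrays, so the comparisons share none. There 1557 genes fell (11.1% of those tested) and 268 rose (1.92%), 13.1% together, with a median of -0.24 over all genes. Their number was 1172 and 210 without the first and the second unstimulated dorsomorphin array, and 0 without 1 or the other control array. Of the 1557, 630 also fell in stimulated cells, which is 36.2% of the 1738 genes that fell in stimulated cells and 40.5% of the 1557. For rises the shared number was 138, or 10.2% of the 1358 genes and 51.5% of the 268. The sign in unstimulated cells was negative for 82.7% of the genes that fell in stimulated cells, beside 59.7% of all tested genes, and positive for 69.5% of those that rose, beside 40.3%. Shared falls were also counted by list. Among the ribosome assembly genes 1 of the 59 that fell also fell in unstimulated cells, and among the cytokine genes 0 of 15. Some of those cytokine genes lay under the floor in unstimulated cells, where a fall could not be measured. Among CD4 T cell identity genes the shared number was 4 of 6, and among synthetases 5 of 21.

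The difference between the effects of dorsomorphin in stimulated and in unstimulated cells was itself tested, as an interaction, and passed for 12 genes (0.0858%). This count was 803 without the first stimulated DMSO array and 0 without any of the other 7 arrays. It was also 0 with the replicate number as a block, so none of these calls held there, and it was 1867 with the 60th percentile filter and 2036 with a variance trend. How many genes differ between the states is therefore not settled by these arrays. Egr2, Spry1, Tnfsf14, Pdcd1lg2, Myc and Ccdc86 had a stronger fall in stimulated cells. For Spry1 the log2 fold was -5.42 in stimulated cells and -0.13 in unstimulated cells, a difference of -5.29 ± 0.35 (adjusted p = 0.0405). For Myc the log2 folds were -4.89 and -1.62, a difference of -3.26 ± 0.30 (adjusted p = 0.0492). Il2, with a difference of -7.77 ± 1.49, did not pass (adjusted p = 0.0678).

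Different probe sets of a gene did not always go the same way. Of the genes that rose and had other probe sets bright enough to test, all of those pointed upward for 713 of 827 (86.2%), and of those that fell, downward for 654 of 932 (70.2%). When all 25886 bright probe sets were tested, 1100 genes had 2 or more past the threshold, and 87 of these (7.91%) had probe sets in opposite directions. The share was 10.5% (64 of 608) when probe sets that can match several transcripts by design were left out. Cyfip2, Auh and Dido1 are examples chosen after their values were seen. The rising probe set of Cyfip2, which encodes an actin regulator, had 2712 and 1541 with dorsomorphin and 96.7 and 75.9 with DMSO, and the falling one had 337 and 324 with dorsomorphin and 3458 and 2019 with DMSO. For Dido1 the log2 folds were 2.67 and -4.20, and for Auh 3.99 and -1.59.

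The same probe sets were also read on the 4 unstimulated arrays, which entered the choice of the 87 genes through the low-signal filter and the shared estimate of spread. The probe set that rose in stimulated cells had the higher log2 fold in unstimulated cells too for 86 of the 87 genes (98.9%). Over all 6583 genes with several probe sets, the one with the higher fold in stimulated cells was also the higher in unstimulated cells for 71.3%. The 2 probe sets had opposite signs in unstimulated cells for 77 genes (88.5%), beside 29.7% of all such genes, and the median difference between them was 2.94 in unstimulated and 3.61 in stimulated cells. Values of these 87 genes read from a single probe set therefore hold for that probe set and not for all transcripts of the gene.

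**Figure D5:**
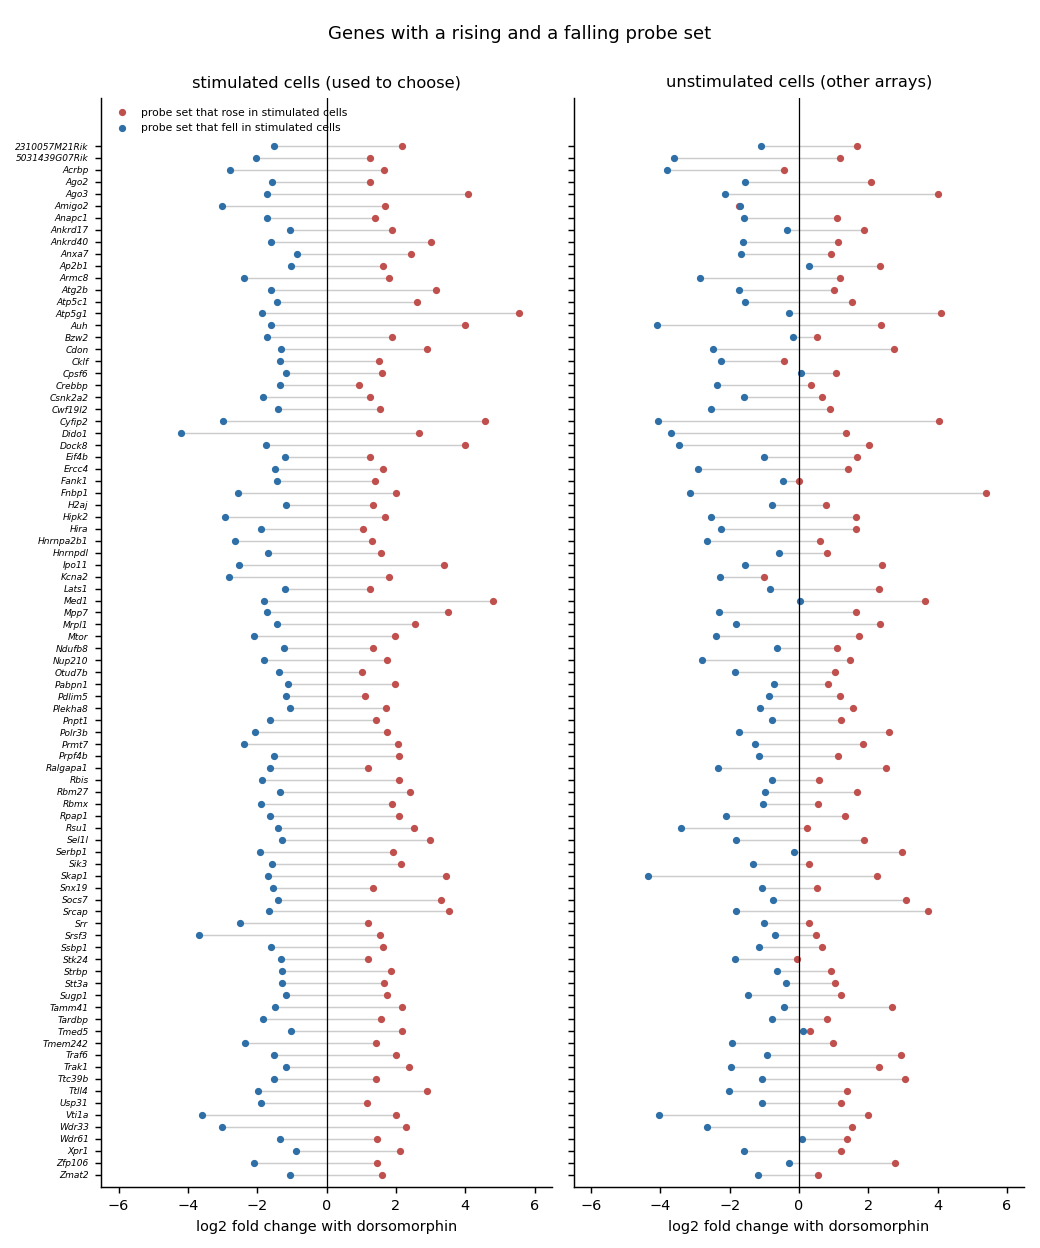
Each row is 1 of the 87 genes with probe sets past the threshold in opposite directions in stimulated cells, and the horizontal axes give the log2 fold with dorsomorphin in stimulated cells (left panel, used to choose the genes) and in unstimulated cells (right panel, other arrays). Grey lines join the probe set that rose and the one that fell in stimulated cells, and in unstimulated cells the order was the same for 86 of the 87 genes.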

How the data were processed

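CD4+ T cells from BALB/c mice were profiled on 8 Affymetrix arrays, 2 for each of 4 groups. Per the labels' protocols, RNA was labelled by in vitro transcription with a kit of the array's maker. The authors deposited linear intensity values for 45101 probe sets, already brought to a common level on every array. The submitters' processing notes name RMA and affy without versions. RMA gives log2 values, so the scaling step behind the deposited intensities is not known, and nor is each array's background, as detection calls were not used.

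Deposited intensities were turned into log2 and not normalized again. Genes were named through the platform annotation, in which 34945 probe sets had 1 symbol, 932 several and 9160 none, with 64 control probe sets besides. For each of 18193 genes the probe set of highest average signal was kept. A low-signal floor was set at the 40th percentile of every value in the table, a log2 of 5.22 or a signal of 37.3, and the 13983 genes above it on 2 or more arrays were tested. A group with both arrays below the floor gives only a bound: its value on each array is raised to the floor before the fold is taken.

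One limma 3.58.1 model in R 4.3.3 held the 4 group means of all 8 arrays (lmFit, contrasts.fit and eBayes without trend or robust options, with 4 residual and 1.90 prior degrees of freedom). Tables were made with pandas 2.3.3 and numpy 2.4.6 in Python 3.11.15. Tests were two-sided, Benjamini-Hochberg adjustment ran across all 13983 genes, and 0.05 was the threshold. The step was tested on simulated data. Alternatives covered scaling, an offset of 16, the filter (60th percentile or none), the summary of probe sets, the variance model, the replicate number as a block, the stimulated arrays alone and leaving out each array. Motifs were counted in RefSeq promoters on build GRCm38.p6.

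The comparison, the gene lists and the rule for named genes were chosen with earlier results of these data known. The rule took, per direction, the 15 largest log2 folds past the threshold with both means above the floor and no overlap, 5 bounds, the 4 largest changes past the threshold in each list, up to 10 interaction genes and a set of fixed genes, without symbols of clones. Smad6, a fixed gene, was too dim to be tested, and not all fixed genes are reported here. Acvr1, Atg12, Bmpr1a, Bmpr2, Bms1, Ccr7, Cd28, Cpt1a, Csf2, Ctla4, Fos, Foxo1, Grwd1, Il10, Il13, Il5, Junb, Klf13, Klf2, Klf6, Ncl, Nop2, Nop56, Npm1, Pdcd1, Pno1, Polr1a, Prkaa1, Prkab1, Psat1, Rpf2, Rrn3, S1pr1, Shmt2, Slc7a5, Surf6, Tnf, Utp20, Utp4, Cyfip2 and Dido1 were named after their values were seen.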

Additional observations from a re-analysis of the deposited data

Results flagged for a closer look

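The genes below are listed because the effect of dorsomorphin differed between stimulated and unstimulated cells in limma's interaction test, which passed for 11 genes with a usual symbol. None of these calls held with the replicate number as a block, where 0 genes passed, nor without any 1 of 7 of the arrays. The value is the log2 fold with dorsomorphin in stimulated cells minus that in unstimulated cells.

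In a first set, the fall with dorsomorphin was larger in stimulated cells. Spry1 differed by -5.29 (adjusted p = 0.0405), Tnfsf14 by -5.28 (0.0492), Egr2 by -5.14 (0.0492) and Pdcd1lg2 by -4.57 (0.0492). Tnfsf14 was under the floor with dorsomorphin in both states, so its size is uncertain. Ccdc86, a nucleolar protein, differed by -3.61 (0.0492), with 289 and 323 with dorsomorphin and 2797 and 3251 with DMSO in stimulated cells, and in unstimulated cells 303 and 393 with dorsomorphin, against 289 and 270.1 in control cells. Myc differed by -3.26 (0.0492).

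In a second set the direction was the other way. Ripor1, a regulator of the GTPase RhoA, differed by 3.52 (0.0492): it rose in stimulated cells (2.66), and its log2 fold of -0.86 in unstimulated cells did not pass. Apobec1, an RNA-editing deaminase, differed by 5.61 (0.0492), with a rise of 1.46 in stimulated cells and a log2 fold of -4.15 in unstimulated cells. Its unstimulated signals were 16.2 and 11.1 with dorsomorphin, under the floor, against 217 and 261 in control cells.

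The other 3 genes did not pass in stimulated cells and changed in unstimulated ones. Galnt9 differed by 6.37 (0.0349), with unstimulated signals of 4.94 and 7.10 with dorsomorphin and 323 and 289 in control cells. Ift172 differed by 4.63 (0.0419), with 12.7 and 12.02 in unstimulated cells with dorsomorphin, against 212 and 215 in control cells. Slc35d3 differed by -3.62 (0.0492), with 49.7 and 63.8 in unstimulated cells with dorsomorphin, against 3.52 and 3.43 in control cells. In each of the 3 genes 1 unstimulated group lay under the floor, so the size of the difference rests on values near background.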

How the results depend on the processing

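The 2 arrays a group limit every call. With only the 4 stimulated arrays fitted, 0 genes passed, and the counts of cytokine, FOXO and quiescence, ribosome assembly and synthetase genes were 0 each. Leaving out 1 array at a time gave 1000 to 2648 genes in stimulated cells, 0 to 803 for the interaction and 0 to 1591 in unstimulated cells, and list counts of 5 to 14 cytokine genes, 1 to 21 FOXO and quiescence genes, 27 to 56 ribosome assembly genes and 6 to 20 synthetases. The other settings kept the count in stimulated cells within 1.5 times of 3096. Median centring moved the median of all genes by 0.17, to -0.10, and gave 802 higher and 1409 lower, quantile normalization gave 1748 higher and 1720 lower, and the first stimulated DMSO array left out gave 1400 higher and 1248 lower. The interaction count of 12 was not stable: it was 0 with median centring, with no filter and with the replicate block, 2 with the mean of all probe sets, 204 with cyclic loess, 688 with quantile normalization, 910 with the offset, 1867 with the 60th percentile filter and 2036 once the variance followed the signal level in a robust fit. The count in unstimulated cells was 786 with median centring, 1145 with cyclic loess, 2968 with the stricter filter, 927 with none, 844 with the mean of all probe sets and 3103 with the trend. Of the named genes that rose and fell, 69 of 70 and 140 of 146 kept their sign in every setting run. With the mean of all probe sets, the log2 fold turned to 1.85 for Atp5g1, 0.43 for Ipo11, 0.29 for Mtor, 0.037 for Ndufb2, 0.40 for Nfatc2, 0.66 for Skap1, -0.23 for Stk11, 0.11 for Cpt1a and 0.0050 for Cyfip2, and with cyclic loess to -0.0068 for Ift172 and -0.035 for Slc35d3. Of the genes named after their values were seen, 36 of 41 kept their sign in every setting run. Besides Cyfip2, the exceptions were 4 genes that did not pass, with ranges on leaving out 1 array of -0.22 to 0.18 for Ctla4, -0.26 to 0.19 for Junb, -0.78 to 0.24 for Cpt1a and -0.027 to 0.73 for Prkaa1, and Ctla4 had 0.031 with quantile normalization. The share of CACGTG promoters was 26.9% for ribosome assembly genes and 14.8% for genes that fell once 50 bases after the start were included, and 10.5% of genes had opposite probe sets without the less specific ones. The replicate numbers are shared between groups, but the labels do not say what they mark. Same-numbered arrays deviated together with r = 0.069 to 0.178 across genes, and 3′ minus 5′ differences of the DapX and ThrX controls separated the numbers in all 4 groups (ThrX 1.62 to 1.76 on arrays numbered 1 and 2.69 to 3.29 on those numbered 2). With the number as a replicate block, 3640 genes passed in stimulated cells, 1672 higher and 1968 lower, and 0 for the interaction. The cause of these changes was not tested.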

Other observations

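Regulators of cytokine signalling, clock genes and chromatin enzymes had members that changed in stimulated cells with dorsomorphin. Of 21 genes of JAKs, STATs and their feedback, 3 rose (14.3%) and 4 fell (19.0%), beside 9.71% and 12.4% of all genes. Stat5b, which carries signals of IL-2 and IL-7 to the nucleus, had 11899.9 and 7478 with dorsomorphin and 3052 and 1551 with DMSO (2.12 ± 0.40, adjusted p = 0.0179 by limma), and Jak1 rose, with 19486 and 15216 with dorsomorphin and 7501 and 4921 with DMSO, while the kinase genes Tyk2 and Pim3 fell (-1.40 ± 0.25 and -1.51 ± 0.25). Another bright probe set of Tyk2 had a log2 fold of 0.73, so its direction depends on the probe set. Among 23 clock and glucocorticoid-responsive genes, 4 rose (17.4%) and 2 fell (8.70%), which together is near the 22.1% of all genes. The clock repressor Per2 had 43.2 and 42.4 with dorsomorphin and 390.1 and 323 with DMSO (-3.05 ± 0.47), and the nuclear receptor gene Rora rose by 2.27 ± 0.43. Across bright probe sets, log2 folds ran from -3.05 to -0.48 for Per2 and from 0.52 to 2.37 for Rora. Kdm6b, a demethylase of histone H3, had 989 and 973 with dorsomorphin and 10534 and 6979 with DMSO (-3.13 ± 0.26, adjusted p = 0.00576), and the arginine methyltransferase gene Prmt1 fell (-2.17 ± 0.37). Prmt7, another such gene, is 1 of the 87 with opposite probe sets: its brightest fell (-2.38 ± 0.25) and another rose (2.06, adjusted p = 0.0212).

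In the list of regulatory T cell genes, 5 of 17 fell (29.4%) and 1 rose (5.88%), beside 12.4% and 9.71% of all genes. Tnfrsf4, or OX40, a costimulatory receptor, had 972 and 1924 with dorsomorphin and 8598 and 11520.3 with DMSO (-2.86 ± 0.38), and Il2ra, described above, is another member, and activated T cells of other kinds express both. Of 15 anergy-linked ligases and diacylglycerol kinases, 3 rose (20%) and 2 fell (13.3%, near the 12.4% of all genes), where 9.71% of all genes rose. The ligase gene Peli1 rose by 1.02 ± 0.24 and the kinase gene Dgke by 1.80 ± 0.40. The 3 bright probe sets of Dgke ran from -0.03 to 1.80. Among Gimap genes, GTPases of lymphocyte survival, Gimap5 and Gimap8 fell (-2.39 ± 0.26 and -1.64 ± 0.33), and the other 6 of 8 did not pass. The genes that fell are 25% of this list, beside 12.4% of all genes.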
